A study of Mus musculus with 71 samples.

Results

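Hox genes are the homeobox genes of 4 chromosomal clusters, and the 38 examined here were taken by name, by a rule that uses no measured value. The list was drawn up with earlier results of these data known. Of these, 37 had a row among the 37620 genes of the count table. Hoxd4 had no matching identifier and was not analysed here. The members were the 10 genes of the Hoxa cluster (chr6:52162417-52260880), 10 of Hoxb (chr11:96194316-96368256), 9 of Hoxc (chr15:102921103-103036852) and 9 of Hoxd (chr2:74668310-74765142), all coordinates in the GRCm38 build.

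The RNA came from C57BL/6 mouse embryos at embryonic day 9.5, with 20 to 22 somites, each divided into the heart, the tail bud and all remaining tissue, called the embryo remainder below. The groups were wild type and 7 mutants of the miR-17~92 locus, a cluster of microRNAs made from a single primary transcript. The full knockout has no miR-17~92 cluster at all. The single mutants lost 1 seed family each: miR-17 with miR-20a in Δ17, miR-18a in Δ18, both miR-19a and miR-19b-1 in Δ19, and miR-92a-1 in Δ92. Δ17,18 and Δ17,18,92 combine these losses. Each genotype and tissue had 3 libraries, except for 2 of the Δ17,18,92 embryo remainder, giving 71 in all. The labels used here do not say whether replicates came from separate litters, so p-values measure the spread between these libraries.

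Hox proteins are transcription factors that give cells their position along the head to tail axis. Within a cluster the genes are switched on in order, from the 3′ end (paralogue group 1) to the 5′ end (group 13), so that low-numbered genes reach further towards the head and high-numbered genes stay close to the tail. The tail bud, which holds the progenitors of trunk and tail, carries this sequence as the body elongates. MicroRNAs pair through their seed, bases 2 to 8, with sites in the 3′ untranslated regions of messenger RNAs and lower their level or translation.

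The mature microRNAs of the locus are shown because the mutants remove them by seed family. Capitals mark the seed, and the sequences are those of RefSeq (GRCm38.p6), where they lie on the plus strand of chromosome 14. miR-17 and miR-20a share a seed, as do miR-19a and miR-19b.
miR-17-5p: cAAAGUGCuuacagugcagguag
miR-20a-5p: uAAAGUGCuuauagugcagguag
miR-18a-5p: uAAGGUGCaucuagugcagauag
miR-19a-3p: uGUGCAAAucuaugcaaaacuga
miR-19b-3p: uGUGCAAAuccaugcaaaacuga
miR-92a-3p: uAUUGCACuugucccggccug

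Matches to bases 2 to 8 were searched on the sense strand of the longest annotated 3′ untranslated region of each gene, as GCACTTT for the miR-17 family, GCACCTT for miR-18, TTTGCAC for miR-19 and GTGCAAT for miR-92. Of the 37 Hox genes, 29 held none of the 4. Among these, the regions of Hoxd11, Hoxa6 and Hoxc12 are annotated with only 30, 77 and 92 bases, against a Hox median of 966. Regions this short leave little room for a match. A miR-19 match was present in Hoxa5, Hoxa9, Hoxb1 and Hoxc13, which is 10.8% of the Hox genes against 11.5% of all 19740 genes with such a region. The stretches around these 4 matches, with the match in capitals, are given for comparison with the changes below.
Hoxa5: gcctttgtaggacccTTTGCACgaactc
Hoxa9: agcttgaatattgttTTTGCACcagagg
Hoxb1: tcctggcacatgtctTTTGCACtaatgc
Hoxc13: cactgcctcctctgcTTTGCACtcttag
A miR-92 match was found in Hoxb8, Hoxc11 and Hoxd8 (8.11% of Hox genes against 6.68% of all genes) and a miR-17 match in Hoxb13 alone (2.7% against 12.1%). No Hox gene held a miR-18 match (7.93% of all genes), and none of the matches was followed by the A that would make it an 8mer. A match is a string of letters in the annotation, and no match means only that these letters are not in this region.

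Library totals ran from 13532012 to 27477273 counts. Hox genes together took a median of 62806.5 counts per library in tail bud, 9521 in the embryo remainder and 547 in heart. Levels are given as CPM, counts scaled to a fixed library size after normalisation over all libraries, and levels are compared between genes only per kilobase of exon. Wild-type replicate 3 of the tail bud stood apart in several Hox genes, and calls of single genes that rest on it are given with and without it. Replicate 2 of the Δ17,18 heart stood apart in the summed cardiomyocyte markers (108500 CPM against 45900 and 46830 in the other two). Cardiomyocyte markers defined the heart, with summed levels of at least 38500 CPM in each heart library and at most 47.8 CPM in tail bud. A lower level in a tissue sample may mean fewer expressing cells or less RNA per cell, and these cannot be told apart in bulk RNA.

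In wild type, Hox RNA was highest in the tail bud, and the median excess over the embryo remainder was larger in each higher set of paralogue groups, with single genes out of order. Of the 35 Hox genes tested between wild-type tissues, 34 passed the test as higher in tail bud than in the embryo remainder (29.8% of all genes passed, 13.2% as higher). Hoxa2, which patterns the hindbrain and the second pharyngeal arch, was the exception at a log2 difference of 0.22 ± 0.10 (SE, edgeR adjusted p = 0.143). The log2 difference had a median of 1.34 over the 10 genes of groups 1 to 4, 2.41 over the 11 of groups 5 to 8, 3.95 over the 7 of groups 9 and 10, and 7.80 over the 7 of groups 11 to 13. Within the Hoxa cluster, the differences of Hoxa3 to Hoxa7 were 1.59 ± 0.12, 0.55 ± 0.13, 2.06 ± 0.11, 3.56 ± 0.20 and 2.85 ± 0.16. Those of Hoxa9, Hoxa10, Hoxa11 and Hoxa13 were 3.95 ± 0.18, 6.39 ± 0.32, 6.46 ± 0.22 and 5.27 ± 0.36, so that Hoxa4, Hoxa7 and Hoxa13 each lay below the gene before them. In the other clusters Hoxd1 (3.26 ± 0.17) lay above Hoxd3 (1.35 ± 0.14), and Hoxb8 (0.88 ± 0.10) below Hoxb7 (2.41 ± 0.15). Of the genes of sacral patterning, Hoxd11 was at 67.09, 89.60 and 94.64 CPM in tail bud with 1, 3 and 2 counts in the remainder, and Hoxc11 at 20.55, 29.16 and 32.59 CPM with 1, 0 and 1 counts. The differences of Hoxc11, Hoxc13 and Hoxd12, each with at most 3 counts over the wild-type remainder, depend on the prior count of the fit, and so does the median of groups 11 to 13. Hoxb9 lay lowest of groups 9 to 13, with 139.9 ± 12.0 CPM in tail bud and 82.15 ± 2.18 in the embryo remainder (SD, n = 3) and a difference of 0.76 ± 0.14 (adjusted p = 0.00138).

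**Figure D1:**
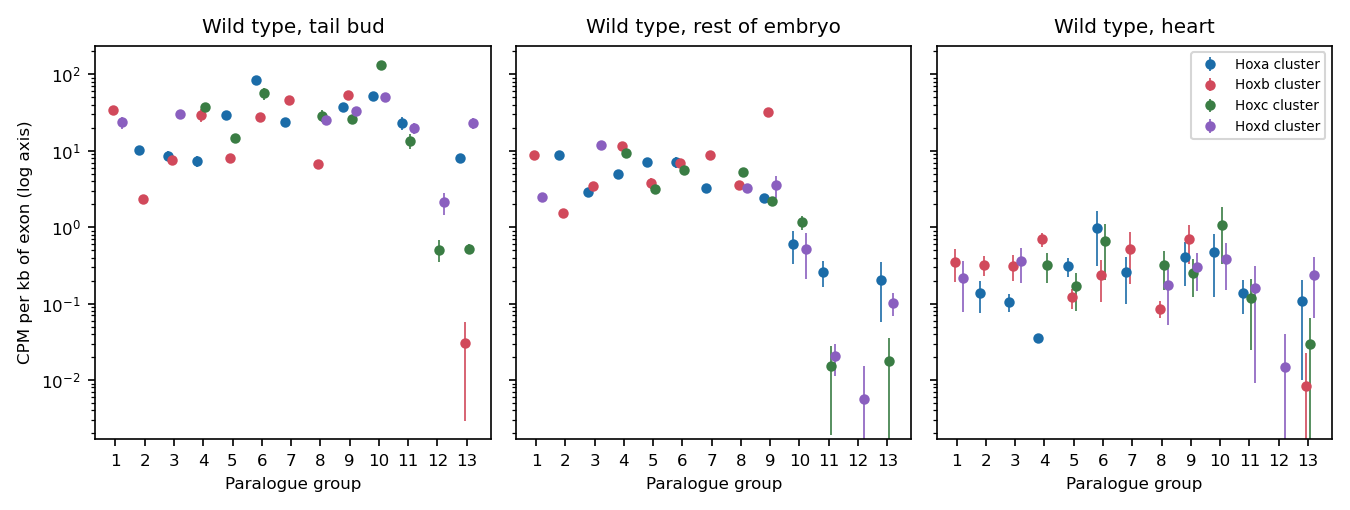
Levels of Hox genes in wild type by paralogue group, in CPM per kb of exon on a log axis, as means of 3 libraries with the SD as bars and colours for the 4 clusters. Genes at 0 in all 3 libraries are left out and lower bars end at 5% of the mean, and the medians by groups 1 to 4, 5 to 8, 9 and 10, and 11 to 13 are 16.9, 27.8, 50.1 and 7.98 in tail bud and 6.88, 5.23, 2.18 and 0.018 in the embryo remainder.

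Per kilobase of exon, Hoxc10 was the most abundant Hox RNA of the wild-type tail bud, at 133.1 ± 6.39 CPM per kb. Its level in CPM was 268.1, 246.5 and 247.4 in the 3 libraries. Hoxc10 belongs to the group that sets the lumbar region. Hoxa6 followed at 85.47 ± 10.8 CPM per kb (76.99, 82.80 and 64.30 CPM) and Hoxc6 at 56.53 ± 9.70 (156.9, 140.6 and 110.8 CPM), both genes of the thoracic region and both lowest in replicate 3. Over all 37 genes ordered in this way, 7 of the 36 pairs of neighbours lay further apart than their summed SD, among them Hoxc10 above Hoxa6 and Hoxa6 above Hoxc6. In the embryo remainder Hoxb9 led at 31.92 ± 0.85 CPM per kb (83.53, 83.28 and 79.64 CPM). Hoxd3 followed at 11.88 ± 0.22 (49.55, 50.82 and 49.04 CPM) and Hoxb4 at 11.54 ± 1.31 (28.62, 33.35 and 26.86 CPM), whose ranges per kb overlapped. There, 8 of 34 neighbouring pairs lay further apart than their summed SD. Hoxb13 was near 0 everywhere, with no count in 8 of 24 tail bud, 20 of 24 heart and 20 of 23 remainder libraries, and Hoxc12 was detected mainly in tail bud (0.52 ± 0.17 CPM in wild type).

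The heart held little Hox RNA. Its amount varied between libraries together with that of T (Brachyury), a gene of tail mesoderm picked after the values had been seen. With the summed marker list chosen first, the relation was weaker and did not pass within genotypes. All 35 Hox genes tested were higher in tail bud than in heart (68.6% of all genes passed, 34.8% as higher), and 25 were higher and 2 lower in the embryo remainder than in heart (68.1% passed, 34.1% as higher). The 2 lower ones were Hoxd11 (−2.87 ± 0.86, adjusted p = 0.0126) and Hoxc11 (adjusted p = 0.0323), both at 0.13 CPM or less in each wild-type library of the remainder. Hoxc11 lost the call in 5 of 6 fits with a library left out, and Hoxd11 with no filter on low counts (0.0668). Without wild-type heart replicate 1 the Hoxd11 difference was −1.75. Over all 24 heart libraries, the mean Hox level was a median of 1.16% of the tail bud mean over the 34 genes with at least 5 CPM in tail bud, and 31 of them lay under 2%. The 3 above were Hoxb2 (12.7%), Hoxb3 (3.67%) and Hoxa2 (2.38%), early genes of the 3′ end, and antisense genes overlap Hoxb2 over 27.3% and Hoxb3 over 52.9% of their exons. The 6 tail bud genes examined singly stood at like shares in heart, from 0.943% to 1.68%. Among them were T at 1.04%, Cdx2 at 0.957%, Cdx4 at 1.04%, Msgn1 at 0.945% and Nkx1-2 at 0.943%. The summed list of tail bud and presomitic mesoderm markers used below stood at a larger share. Its median was 64.35 CPM in heart and 862 CPM in tail bud.

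The highest Hox RNA of the wild-type heart per kilobase was Hoxc10 at 1.08 ± 0.75 CPM per kb, with 3.71, 1.17 and 1.30 CPM in the 3 libraries. Hoxa6 followed at 0.96 ± 0.65 (1.42, 0.28 and 0.83 CPM) and Hoxb9 at 0.70 ± 0.37 (2.56, 0.72 and 2.13 CPM), so that 2 of the leading 3 were also in the leading 3 of tail bud. Replicate 1 was highest for each of these 3 genes. Of 35 neighbouring pairs in the order of heart levels, only Hoxb8 above Hoxa4 lay further apart than the summed SD. The summed Hox level ran from 10.81 to 61.80 CPM over the 24 heart libraries, with a median of 29.62. The summed list of 10 tail bud and presomitic mesoderm markers, the measure first chosen, had Pearson's r = 0.46 with it, both in log2 CPM (permutation p = 0.0222, adjusted 0.0278) and Spearman's rho = 0.49 (p = 0.0165, adjusted 0.0206). Centred on the genotype means and permuted within genotypes, this relation did not pass (r = 0.40, permutation p = 0.191; rho = 0.35, p = 0.187), and r without the 2 farthest libraries was 0.44 pooled and 0.32 centred. The list summed to 52.3 to 78.79 CPM in heart, of which T made up 0.55 to 5.84 CPM. T alone was tried after the values had been seen. No other single tail bud gene was tested in this way, and the adjusted p below does not cover the choice of T. With T, r was 0.93 and rho 0.95 (permutation p = 1e-05 for both, the smallest that 100000 permutations give, adjusted 5e-05). Centred on genotype, r was 0.90 (permutation p = 0.00055, adjusted 0.00138) and rho 0.87 (p = 0.0004, adjusted 0.001). Without the 2 libraries farthest in T, r was 0.91 pooled and 0.84 centred. These were 4 of 5 relations tested across libraries, with p adjusted over the 5.

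**Figure D2:**
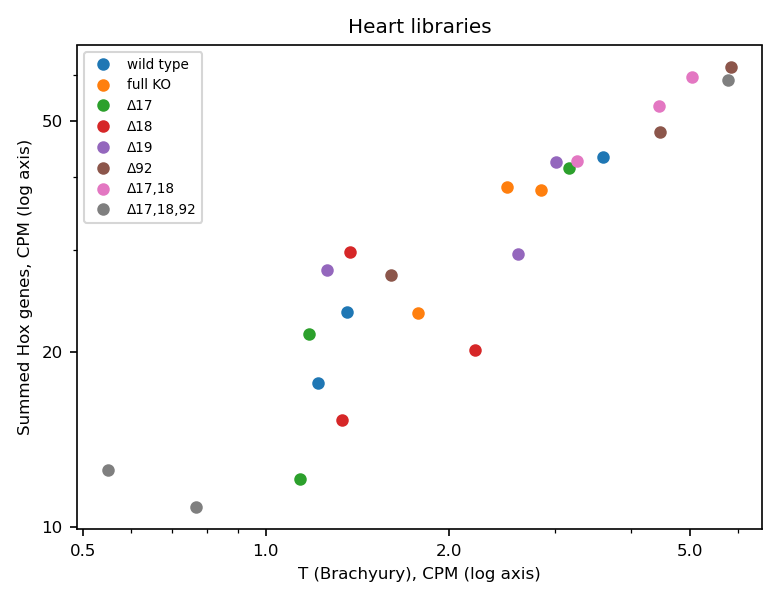
Summed CPM of the 37 Hox genes against the CPM of T in each of the 24 heart libraries, both on log axes and coloured by genotype. Summed Hox levels run from 10.81 to 61.80 CPM and are higher in the libraries with more T (r = 0.93). T was chosen after the values had been seen.

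No Hox gene passed the test in the heart in any mutant. Of 30 tested, 0 passed in the full knockout (1 at an unadjusted p under 0.05, edgeR), and 0 in Δ17 (0 unadjusted), Δ18 (0), Δ19 (0), Δ92 (2), Δ17,18 (5) and Δ17,18,92 (0). The share of all genes that passed was 3.91%, 0.555%, 0.0418%, 0.406%, 0.0716%, 1.12% and 1.89% in that order, and DESeq2 also gave 0 Hox genes in each. Without a filter on low counts, 9 passed in Δ17,18, all higher. The summed Hox level was 59.43, 53.08 and 42.61 CPM in the Δ17,18 hearts and 43.29, 17.65 and 23.40 in wild type. T stood at 5.04, 4.44 and 3.25 CPM and at 3.60, 1.22 and 1.36 CPM in the same libraries, and its part in the difference was not tested. Among the family terms, 0 of 30 passed for miR-17 (3.61% of all genes), miR-18 (0.0896%), miR-19 (4.37%) and miR-92 (1.58%), with 0, 0, 3 and 0 at an unadjusted p under 0.05.

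In the tail bud of the full knockout, 5 Hox genes were higher, by 0.22 to 0.41 on the log2 scale. They were Hoxa5, Hoxb5, Hoxa6, Hoxb4 and Hoxb6, all of paralogue groups 4 to 6, and none was lower. With 36 Hox genes tested, the 5 compare with 10.4% of all 17009 genes that passed and 5.93% that passed as higher. The median log2 change was 0.20 over the 36 Hox genes and −0.01 over all genes, and 32 of 36 were above 0. These values and the medians below include wild-type replicate 3 and are not given without it. Hox genes of the same libraries are not independent observations, and the share of all genes above 0 is not given. Where libraries of 2 groups are said not to overlap, here and below, the share of all genes that separate likewise was not counted. Such separation therefore describes the levels and is no test. By groups, the medians were 0.17 (groups 1 to 4, 10 genes), 0.20 (5 to 8, 11 genes), 0.00 (9 and 10, 7 genes) and 0.31 (11 to 13, 8 genes). This lean was not particular to the full knockout. In groups 5 to 8, 10 of 11 genes were above 0 in it and in Δ18, Δ19 and Δ92, and 7 or 8 in the other mutants. In groups 11 to 13, 8 of 8 were above 0 in it and in Δ17,18 (median 0.74), Δ17,18,92 (0.57), Δ17 (0.42) and Δ18 (0.33). The median of groups 11 to 13 was −0.06 in Δ19 and −0.24 in Δ92. All 7 comparisons within a tissue share the wild-type libraries.

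Hoxa5, which patterns the cervical and upper thoracic region and the lung, was at 51.49, 62.11 and 52.42 CPM in the wild-type tail buds. In the full knockout it was at 69.38, 72.32 and 81.04 CPM, every library above every wild-type library. It rose by 0.41 ± 0.08 (log2 ± SE, adjusted p = 0.00109), and the call held with each library left out in turn. Hoxb5, its paralogue, stood at 22.73, 23.11 and 20.77 CPM in wild type. It stood at 31.10, 28.20 and 28.98 in the full knockout, again with no overlap. It rose by 0.39 ± 0.09 (adjusted p = 0.00576), also with each library left out. Fitted with the 6 libraries compared alone, which leaves fewer degrees of freedom, neither passed (0.0709 and 0.0595), nor did any other Hox gene.

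Hoxa6, at the thoracic level, rose by 0.34 ± 0.09 (adjusted p = 0.0264), from 76.99, 82.80 and 64.30 CPM to 90.85, 95.36 and 99.51. Hoxb4, a cervical gene, rose by 0.32 ± 0.10 (adjusted p = 0.0453), from 86.40, 80.69 and 59.24 CPM to 100.4, 88.68 and 96.78. Hoxb6 rose by 0.22 ± 0.07 (adjusted p = 0.0499), from 58.05, 56.37 and 49.10 CPM to 64.73, 61.66 and 65.57. The groups did not overlap for any of them, but wild-type replicate 3 was the lowest library for all 3. Without that library the log2 change was 0.25 for Hoxa6 (adjusted p = 0.188), 0.19 for Hoxb4 (0.255) and 0.16 for Hoxb6 (0.244). The calls also ended without full knockout replicate 2 or 3 (Hoxa6, 0.0653 and 0.0997; Hoxb4, 0.0520 and 0.128; Hoxb6, 0.0663 and 0.148) and, for Hoxb4 and Hoxb6, without its replicate 1 (0.151 and 0.129). With no filter on low counts Hoxa6 (0.0744) and Hoxb4 (0.106) did not pass, with a term for Xist state Hoxb4 (0.0529) and Hoxb6 (0.0646) did not, and Hoxb6 also missed with RLE size factors (0.0515). Xist state means high Xist RNA (at least 1188 CPM) or low Xist RNA (at most 49.16 CPM). It was high in 0 of 3 full knockout and 1 of 3 wild-type tail buds.

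**Figure D3:**
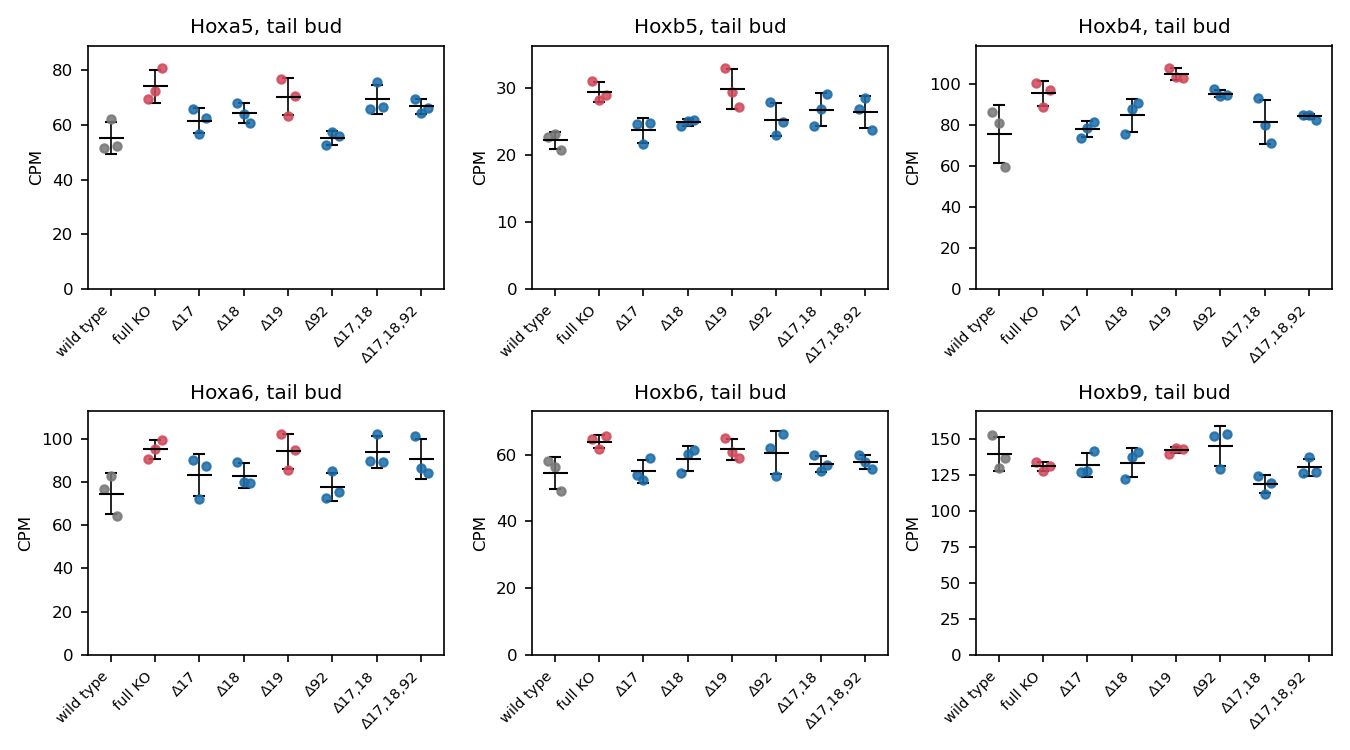
CPM of 6 Hox genes in each tail bud library of the 8 genotypes, with the mean as a bar and the SD as whiskers; the full knockout and Δ19, which lack miR-19, are in red and wild type in grey. Hoxa5 lies between 69.38 and 81.04 CPM in the full knockout against 51.49 to 62.11 in wild type.

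In the Δ19 tail bud, 3 of 36 Hox genes passed the test, all higher, against 1.03% of all genes and 0.588% as higher. They were Hoxa5, Hoxb5 and Hoxb4. Hoxb5 stood at 33.10, 29.52 and 27.18 CPM and rose by 0.42 ± 0.09 (adjusted p = 0.0172). Hoxb4 stood at 107.9, 103.4 and 102.8 CPM, above every wild-type library, and rose by 0.46 ± 0.10 (adjusted p = 0.0286). Hoxa5 stood at 76.84, 63.32 and 70.78 CPM and rose by 0.34 ± 0.08 (adjusted p = 0.0311). Without wild-type replicate 3 none of the 3 passed (0.0635, 0.106 and 0.137), nor without Δ19 replicate 1 (0.126, 0.115 and 0.181). Hoxb4 also lost the call without Δ19 replicate 2 (0.0821) or 3 (0.0766), and Hoxa5 without Δ19 replicate 3 (0.0920) or wild-type replicate 1 (0.0568). With no filter on low counts Hoxb4 did not pass (0.0740), and with the 6 libraries compared alone none did. DESeq2 called 6 Hox genes, all higher. Hoxa6 (0.33 ± 0.09, adjusted p = 0.0940) and Hoxb7 (0.22 ± 0.08, adjusted p = 0.169) had no overlap with wild type but did not pass.

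The single losses without miR-19 gave no Hox call in tail bud. In Δ17, 0 of 36 passed (2 unadjusted, 1.77% of all genes), in Δ18 0 (2 unadjusted, 0.129%) and in Δ92 0 (2 unadjusted, 0.359%), and DESeq2 also gave 0 in each. Hoxb4 in Δ92 stood at 97.29, 93.80 and 94.61 CPM, above all wild-type libraries, with a log2 change of 0.33 ± 0.10 (adjusted p = 0.226). Hoxa5 stood at 52.49, 57.42 and 55.87 CPM in Δ92, within the wild-type range.

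In Δ17,18, 3 of 36 passed, against 8.31% of all genes. Hoxa5 rose by 0.32 ± 0.08 (65.95, 75.64 and 66.55 CPM, adjusted p = 0.0156) and Hoxa6 by 0.32 ± 0.10 (90.04, 102.6 and 89.55 CPM, adjusted p = 0.0409). Hoxb9, the last gene of the trunk series in its cluster, fell by 0.25 ± 0.07 on the log2 scale (adjusted p = 0.0308), from 153.2, 129.8 and 136.7 CPM to 124.3, 112.0 and 119.7. Every Δ17,18 library of Hoxb9 lay below every wild-type library. In Δ17,18,92, 2 of 36 passed, against 5.57% of all genes. Hoxa13, which acts at the end of the axis and in limb and hindgut, rose by 0.33 ± 0.10 (adjusted p = 0.0476), from 17.58, 21.43 and 20.14 CPM to 26.17, 22.21 and 26.60. Hoxa5 rose by 0.26 ± 0.08 (69.71, 64.55 and 66.20 CPM, adjusted p = 0.0477). Each of these 5 calls ended without wild-type replicate 3: the adjusted p was 0.0819 for Hoxa5, 0.240 for Hoxa6 and 0.0998 for Hoxb9 in Δ17,18, and 0.0692 for Hoxa13 and 0.182 for Hoxa5 in Δ17,18,92. Each also ended without wild-type replicate 1 (0.0502 to 0.144) and without at least 1 mutant library: Δ17,18 replicate 2 for Hoxa5 (0.110), any Δ17,18 replicate for Hoxa6 (0.0557 to 0.181), Δ17,18 replicates 2 and 3 for Hoxb9 (0.150 and 0.0837), Δ17,18,92 replicates 1 and 3 for Hoxa13 (0.176 and 0.127) and any Δ17,18,92 replicate for Hoxa5 (0.0726 to 0.184). Hoxa6 in Δ17,18 also missed with no filter on low counts (0.107) and Hoxa5 in Δ17,18,92 with a term for Xist state (0.0585), and none of the 5 passed with the 6 libraries compared alone.

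A model with 1 additive term per lost seed family uses all libraries of a tissue for each family. The miR-19 term rests on Δ19 and the full knockout, which both lack miR-19. In tail bud 7 of 36 passed, all higher (5.33% of all genes, 2.89% as higher): Hoxa5, Hoxb3, Hoxb4, Hoxb5, Hoxb7, Hoxc6 and Hoxd3. In the embryo remainder 6 of 32 passed, all higher (6.59% of all genes, 3.37% as higher): Hoxa5, Hoxa9, Hoxb7, Hoxb9, Hoxc4 and Hoxc6. Hoxa5, Hoxb7 and Hoxc6 passed in both tissues. The median over the Hox genes tested was 0.09 in tail bud and 0.15 in the embryo remainder, against −0.01 and 0.00 over all genes. Of these 10 genes, Hoxa5 and Hoxa9 hold the miR-19 match printed above, and Hoxb1 and Hoxc13, which hold it too, did not pass.

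In tail bud the miR-19 term was 0.24 ± 0.04 for Hoxa5 (adjusted p = 0.00134) and 0.25 ± 0.06 for Hoxb5 (0.00558), and both held with each of the 24 libraries left out in turn. It was 0.25 ± 0.06 for Hoxb4 (adjusted p = 0.0235), 0.15 ± 0.04 for Hoxd3 (0.0283), 0.16 ± 0.05 for Hoxb7 (0.0390), 0.27 ± 0.08 for Hoxc6 (0.0448) and 0.23 ± 0.07 for Hoxb3 (0.0450). These 5 lost the call in 4 (Hoxb4), 5 (Hoxd3), 8 (Hoxb7), 14 (Hoxc6) and 16 (Hoxb3) of the 24 fits, each time also without Δ19 replicate 1, where the adjusted p was 0.0882, 0.112, 0.145, 0.154 and 0.133, and without full knockout replicate 1 (0.0575, 0.0741, 0.129, 0.111 and 0.164). Without wild-type replicate 3, Hoxb3 had a term of 0.22 and did not pass (0.0522). With no filter on low counts Hoxb4 (0.0619), Hoxc6 (0.0887) and Hoxb3 (0.0716) did not pass. Hoxc6 stood at 178.8, 161.0 and 163.9 CPM in the full knockout tail bud and 197.0, 176.8 and 164.4 in Δ19, all above the wild-type 110.8 to 156.9. Hoxd3 stood at 151.3, 146.3 and 147.3 CPM and at 155.4, 141.9 and 146.0, against 139.4, 134.9 and 107.3 in wild type, with no overlap. Mutants that keep miR-19 did overlap these levels. Hoxc6 reached 164.0 CPM in Δ92 and 164.5 in Δ17,18, and Hoxd3 reached 145.2 CPM in Δ92 and 145.7 in Δ18. Hoxb7 stood at 86.10, 70.64 and 81.12 CPM in the full knockout and overlapped wild type (75.22, 74.25 and 65.93), but Δ19 (89.46, 83.73 and 79.83) did not.

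In the embryo remainder, Hoxb7 had the smallest adjusted p among Hox genes, with a miR-19 term of 0.30 ± 0.06 (adjusted p = 0.00189). It stood at 14.21, 13.68 and 12.45 CPM in wild type, 17.68, 12.61 and 15.23 in the full knockout and 19.19, 15.29 and 16.20 in Δ19. Hoxb9 had 0.27 ± 0.06 (adjusted p = 0.00590), at 83.53, 83.28 and 79.64 CPM in wild type, 98.62, 85.99 and 85.61 in the full knockout and 117.0, 96.68 and 87.26 in Δ19, so that all 6 libraries without miR-19 lay above wild type. Both held with each of the 23 libraries left out. Hoxc6 (0.26 ± 0.06, adjusted p = 0.0151) stood at 13.05, 13.31 and 14.19 CPM in wild type, 15.82, 14.55 and 15.42 in the full knockout and 19.37, 14.73 and 16.98 in Δ19, also without overlap with wild type. Δ18, which keeps miR-19, did overlap, reaching 90.95 CPM for Hoxb9 and 16.87 CPM for Hoxc6. Hoxc4 (0.23 ± 0.06, adjusted p = 0.0164) stood at 22.68, 22.95 and 26.39 CPM in wild type, 28.44, 24.66 and 24.55 in the full knockout and 37.29, 26.13 and 27.28 in Δ19. Replicate 1 of Δ19 was the highest library of these 4 genes, and without it the terms were 0.19 for Hoxc6 (adjusted p = 0.105) and 0.13 for Hoxc4 (0.129), neither of which passed. Hoxc4 also lost the call without full knockout replicate 1, where its adjusted p lay at the threshold. Hoxa5 (0.22 ± 0.06, adjusted p = 0.0257) stood at 16.88, 17.02 and 16.69 CPM in Δ19, above wild type (11.20, 13.98 and 14.45), but at 12.71, 11.87 and 14.32 in the full knockout, within it. Hoxa9 had 0.35 ± 0.10 (adjusted p = 0.0369), at 12.95, 12.55 and 14.87 CPM in wild type, 14.61, 14.87 and 16.82 in the full knockout and 18.65, 15.94 and 18.48 in Δ19. Hoxa5 lost the call without any Δ19 replicate or without full knockout replicate 3 (0.0648 to 0.0824), and Hoxa9 in 8 of 23 fits, up to 0.124 without Δ19 replicate 1, and with no filter on low counts (0.0801).

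**Figure D4:**
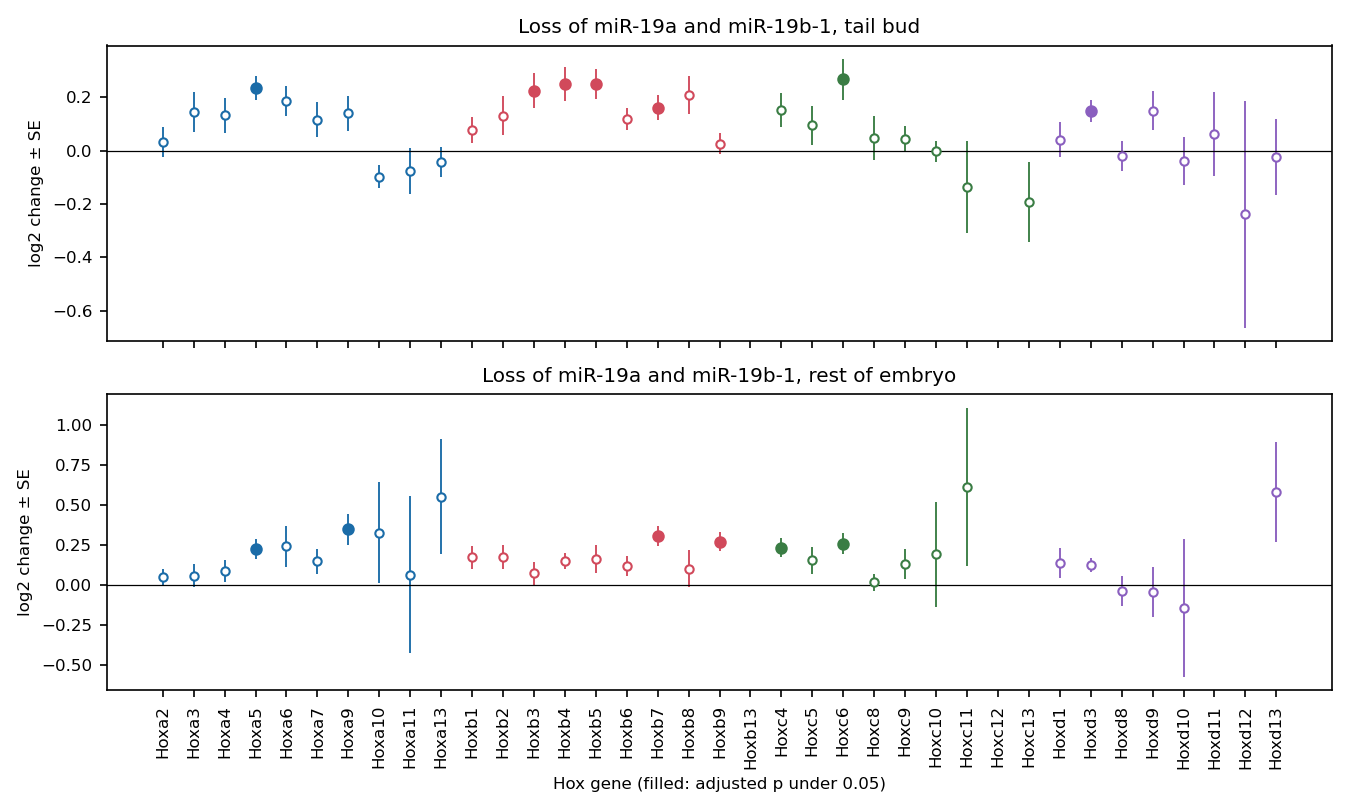
Log2 change per Hox gene with loss of miR-19a and miR-19b-1 in the additive model, ± SE, in tail bud (upper) and the embryo remainder (lower); filled points passed the test and colours mark the cluster. The 7 and 6 filled points are all above 0, Hoxc12 in tail bud is left out for an SE over 0.5, and other genes without a point were not tested.

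The other families gave few Hox calls. Loss of the miR-17 family passed for 2 of 36 in tail bud, both of group 13 (5.44% of all genes). Hoxc13 had 0.61 ± 0.14 (adjusted p = 0.00798), and this held with each library left out. Its levels were low, at 1.24, 1.52 and 1.13 CPM in wild type, 2.19, 1.83 and 1.79 in Δ17, 2.03, 2.78 and 1.98 in Δ17,18, 2.88, 1.58 and 2.14 in Δ17,18,92 and 1.75, 1.95 and 1.501 in the full knockout. Hoxa13 had 0.19 ± 0.06 (adjusted p = 0.0408), and 12 of the 24 fits with a library left out no longer passed. In the embryo remainder 1 of 32 passed (7.49% of all genes): Hoxd3 fell by 0.15 ± 0.04 on the log2 scale (adjusted p = 0.0256). Hoxd3 stood at 49.55, 50.82 and 49.04 CPM there in wild type, 52.13, 43.40 and 45.96 in Δ17 and 55.92, 50.38 and 49.92 in the full knockout, which overlap. It lost the call without Δ17 replicate 2 or 3 (0.134 and 0.0751) or Δ18 replicate 1 or 2 (0.0721 and 0.0708). For miR-18, 0 of 36 passed in tail bud (6 unadjusted, 0.323% of all genes) and 0 of 32 in the embryo remainder (6 unadjusted, 0.748%). For miR-92, 0 passed in both (3 and 5 unadjusted, 3.66% and 5.18%), and DESeq2 also gave 0 for these 2 families. The test of departure from additivity passed for 0 Hox genes in tail bud (0 unadjusted, 0.0176% of all genes), heart (8 unadjusted, 0.0597%) and the embryo remainder (1 unadjusted, 0.103%), by edgeR, the single tool run for it.

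In single genotypes, the embryo remainder gave 2 Hox calls. In Δ17,18,92, 1 of 32 passed (5.62% of all genes): Hoxb1, a gene of the hindbrain and of the early posterior axis, fell by 0.45 ± 0.12 on the log2 scale (adjusted p = 0.0302), from 22.00, 19.58 and 20.61 CPM to 14.95 and 15.82. Both mutant libraries lay below all others of that gene in wild type, and the call ended without either of them (0.210 and 0.158) or without wild-type replicate 1 or 3 (0.112 and 0.0669). The summed cardiomyocyte list was at 511.5 and 754.9 CPM in these 2 libraries against 318.8 to 404.6 in wild type. Tnnt2, Myl4, Nppa and Ttn of this list passed as higher. The somite list was at 203.3 and 208.1 CPM against 221.4 to 230.4. The hindbrain list, which includes Hoxb1, was at 27.72 and 29.66 CPM against 37.23 to 40.79. The neural tube, forebrain and midbrain and tail bud lists overlapped. The part of these lists in the Hoxb1 fall was not tested. In Δ17,18, 1 of 32 passed (4.44% of all genes): Hoxc11, with 1, 0 and 1 counts in wild type and 11, 9 and 6 in the mutant, so that no fold is given. It lost the call under DESeq2 and with any 1 library left out for which it was tested. In the full knockout 0 of 32 passed (2 unadjusted, 6.66% of all genes), in Δ17 0 (3 unadjusted, 1.56%), in Δ18 0 (0 unadjusted, 0.36%), in Δ19 0 (12 unadjusted, 1.88%) and in Δ92 0 (0 unadjusted, 0.588%), and DESeq2 gave 1 in Δ19 and 0 in the other 4.

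The difference of a mutant's effect between tail bud and the embryo remainder was tested for each genotype. No Hox gene of 36 passed in the full knockout (2 unadjusted, 0.00553% of all genes), Δ92 (2 unadjusted, 0.00553%) or Δ17 (1 unadjusted), Δ18 (0), Δ19 (2), Δ17,18 (2) and Δ17,18,92 (2), where 0% of all genes passed. With a block for each genotype and replicate number, 0 Hox genes passed in each of the 7 as well. Hoxa5 in the full knockout had a difference of 0.44 ± 0.14 (adjusted p = 0.425, edgeR). The calls made in 1 of these tissues and not in the other are not shown to differ between them.

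Several Hox genes of the 5′ end varied widely between tail buds of 1 genotype. The within-genotype SD on the log2(CPM + 0.5) scale had a median of 0.14 over groups 1 to 4, 0.14 over groups 5 to 8, 0.11 over groups 9 and 10 and 0.34 over groups 11 to 13 (6 genes of at least 5 CPM, from 0.13 for Hoxa13 to 0.88 for Hoxd12). Over all 11173 genes of at least 5 CPM its median was 0.09 and its 95th percentile 0.21, and 5 of 34 Hox genes lay above that percentile: Hoxd10 of group 10, and Hoxc11, Hoxd11, Hoxd12 and Hoxd13. Hoxd12, a gene of the tail and the limb, was at 20.71, 4.50 and 8.14 CPM in Δ17, 23.30, 5.401 and 4.74 in Δ18, 8.83, 28.73 and 15.11 in Δ17,18 and 27.88, 8.23 and 8.69 in Δ17,18,92, with 1 library far above the others in each. In wild type it was at 3.51, 5.66 and 6.88 CPM. Hoxd11 followed the same libraries, at 136.8, 72.04 and 92.41 CPM in Δ17 and 142.9, 95.10 and 88.14 in Δ18.

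The same replicate numbers were mostly also high in group 10 of the embryo remainder. The labels do not say that parts of the same number come from 1 embryo. Xist state was the same in every tissue for all 24 sets of equal genotype and number. The mean log2 level of groups 11 to 13 without Hoxb13 in tail bud and that of group 10 in the embryo remainder, each centred on its genotype mean, had r = 0.77 over 23 pairs of the same number (permutation within genotype p = 0.00176, adjusted 0.00293) and rho = 0.73 (p = 0.00363, adjusted 0.00605). Without the 2 farthest pairs r was 0.68. The number of the highest library was the same in both tissues in 7 of 8 genotypes, the full knockout being the exception. This relation was chosen after the values had been seen, and its permutation and adjusted p-values do not cover that choice. In the embryo remainder, groups 11 to 13 had a median of 0.48% of the tail bud level (6 genes, 0.1041% to 3.704%). The 6 tail bud genes examined ran from 0.0595% to 4.475% there, with T at 1.87%.

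**Figure D5:**
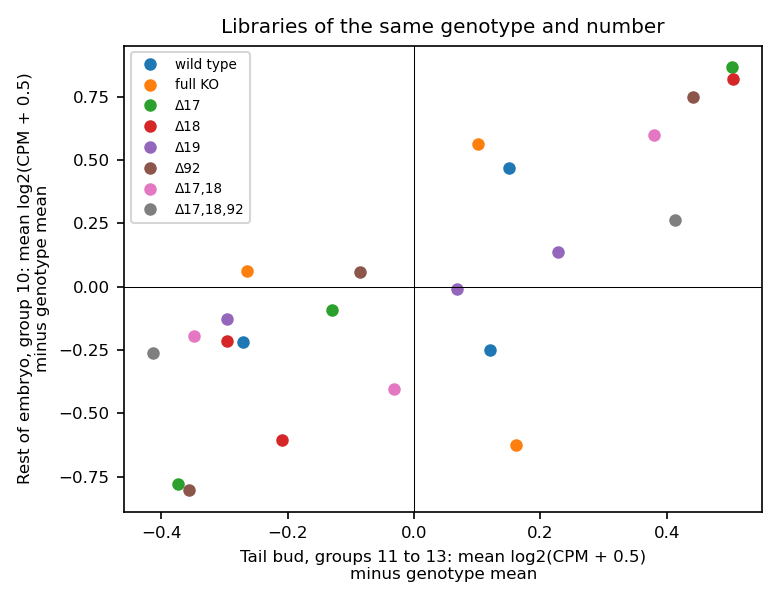
Mean log2(CPM + 0.5) of Hox groups 11 to 13 in tail bud (horizontal) and of group 10 in the embryo remainder (vertical), each minus its genotype mean, for the 23 pairs of libraries of the same genotype and number. Points at the upper right are the libraries high in both, and r is 0.77.

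Genes that act with or upstream of Hox genes were counted from lists chosen by function, in the full knockout and for the miR-19 term. In the full knockout 10.4% of all genes passed in tail bud (5.93% as higher), 6.66% in the remainder and 3.91% in heart, against which the counts are to be read. Of the 9 TALE cofactors (Pbx, Meis and Pknox genes, which bind DNA with Hox proteins), 0 passed in tail bud and in the embryo remainder, and 1 was lower in heart, Pbx2 (−0.20 ± 0.04, adjusted p = 0.00715). Of the 20 chromatin regulators, 3 passed in tail bud, all higher. Suz12, a core subunit of the Polycomb complex that represses Hox genes, rose by 0.65 ± 0.06 in tail bud (adjusted p = 2.12e-08), 0.63 ± 0.03 in the embryo remainder (4.23e-15) and 0.39 ± 0.05 in heart (5.41e-06). Kmt2a, a methyltransferase that keeps Hox genes active, rose by 0.23 ± 0.07 in tail bud (adjusted p = 0.0279), and Pcgf2, a Polycomb member, by 0.17 ± 0.05 there (0.0329) and 0.15 ± 0.04 in the embryo remainder (0.00864). The list medians were 0.07, 0.04 and 0.04 in tail bud, the embryo remainder and heart.

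Of 18 upstream regulators tested in the full knockout tail bud, 2 were higher and 1 lower, to be read against the shares of all genes given above. Gdf11, a signal that drives the switch from trunk to tail, rose by 0.41 ± 0.06 (adjusted p = 0.00017), Fgf4 by 1.66 ± 0.35 (0.00372), and Gmnn, a replication inhibitor that also represses Hox genes, fell by 0.26 ± 0.08 on the log2 scale (0.0360). In heart, Lin28b (−0.26 ± 0.07, adjusted p = 0.0357) and Gmnn (−0.24 ± 0.07, 0.0460) were lower, and in the embryo remainder 0 of 19 passed. Of the 15 noncoding RNAs and Evx genes of the clusters tested in tail bud, 0 passed, as in heart (8 tested) and in the embryo remainder (12).

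For the miR-19 term, 3 of 20 chromatin regulators passed in tail bud (5.33% of all genes), 4 of 20 in the remainder (6.59%) and 2 of 20 in heart (4.37%), all higher. Suz12 rose by 0.62 ± 0.03 in tail bud (adjusted p = 9.58e-14), 0.71 ± 0.02 in the remainder (5.91e-24) and 0.44 ± 0.03 in heart (8.05e-12). Cbx7, a Polycomb subunit that binds methylated histone H3, rose by 0.49 ± 0.07 (tail bud, adjusted p = 6.25e-05) and by 0.45 ± 0.08 (remainder, 0.000289). Jarid2, a Polycomb cofactor, rose by 0.12 ± 0.03, 0.09 ± 0.02 and 0.11 ± 0.03 in tail bud, remainder and heart (adjusted p = 0.0360, 0.0232 and 0.0131), and Pcgf2 by 0.08 ± 0.02 in the remainder (0.0276). Of the upstream regulators, the signals Fgf8 (0.46 ± 0.13, adjusted p = 0.0367) and Fgf4 (0.62 ± 0.18, 0.0404) were higher in tail bud, 2 of 18. Cdx1, a direct activator of Hox genes, was higher in the remainder (0.35 ± 0.10, adjusted p = 0.0239), 1 of 19, and 0 of 17 passed in heart. Of the cofactors, Pbx2 was lower in tail bud (−0.11 ± 0.03, adjusted p = 0.0323), 1 of 9, and 0 of 9 passed in each other tissue. Of the cluster noncoding RNAs, Hotairm1 of the Hoxa cluster was higher in tail bud (0.20 ± 0.06, adjusted p = 0.0407; 1 of 15), Haglr of the Hoxd cluster in the remainder (0.20 ± 0.06, 0.0487; 1 of 12) and Hoxb3os in heart (0.41 ± 0.09, 0.00525; 1 of 8).

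Marker lists of the tissues a sample could hold were counted in the same way, to be read against the same shares of all genes. In the full knockout tail bud, 2 of 10 tail bud and presomitic mesoderm markers were higher, Tbx6 (0.26 ± 0.07, adjusted p = 0.0264) and Dll3 (0.36 ± 0.11, 0.0465), with a summed list level of 859.5 to 1078 CPM and 875.6 to 906.8 in Δ19 against 790.4 to 854.1 in wild type. The neural tube list summed higher without overlap as well, at 71.22 to 78.09 CPM in the full knockout and 76.29 to 82.37 in Δ19 against 57.8 to 69.43. The limb and lateral plate list summed to 444.3 to 487.6 CPM in the full knockout, above wild type (402.1 to 439.1), but to 374.6 to 408.1 in Δ19. The forebrain and midbrain list was lower in the full knockout, at 9.313 to 9.743 CPM against 10.07 to 12.7, and the visceral endoderm list in Δ19, at 6.722 to 7.007 against 7.631 to 9.057. The summed primitive erythroid list was lower in the full knockout tail bud, at 773.5 to 3458 CPM against 3653 to 5470. The somite, hindbrain and cardiomyocyte lists overlapped wild type in the full knockout and in Δ19. How often genes or lists lie without overlap was not counted, so these levels have no background share. The part of these lists in the Hox results was not tested. Among single markers, Pax3 of the somite list (0.74 ± 0.14, adjusted p = 0.00144) and Tubb3 of the neural tube list (0.51 ± 0.14, 0.0185) were higher, and of the limb and lateral plate list Pitx1 was higher (0.41 ± 0.08, 0.0024) and Fgf10 lower (−0.74 ± 0.17, 0.00703). In the cardiomyocyte, hindbrain, forebrain and midbrain, primitive erythroid and visceral endoderm lists 0 passed in tail bud. In the embryo remainder Nkx1-2, a tail bud marker, was higher (0.52 ± 0.15, adjusted p = 0.0359) and Meox2, a somite marker, lower (−0.33 ± 0.10, 0.0362), and in heart Tbx5 of the limb list, which the heart also uses, was higher (0.22 ± 0.06, 0.0272). For the miR-19 term in tail bud, Rspo3 (0.25 ± 0.07, adjusted p = 0.0320) and Fgf8 of the tail bud list (2 of 10), Sox2 of the neural tube list (0.23 ± 0.05, 0.00405; 1 of 7) and Pitx1 (0.32 ± 0.06, 0.00102) were higher and Fgf10 lower (−0.32 ± 0.09, 0.0454; 2 of 8). In the remainder Meox1, a somite marker, was higher (0.18 ± 0.03, adjusted p = 0.000126; 1 of 9) and Ttn, a cardiomyocyte marker, lower (−0.43 ± 0.13, 0.0479; 1 of 10). The part of these genes in the Hox results was not tested.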

How the data were processed

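RNA from 71 libraries was prepared with TRIZOL and a TruSeq kit and sequenced as single reads of 50 bases, per the labels' protocols. The authors deposited raw counts per gene, and the submitters' processing notes list, without roles, Subread 1.4.2 (featureCounts), STAR 2.3.0 and SAMtools 0.1.14; the build listed is mm9. Strand and multi-mapping settings are not given in the sources used here, so reads of overlapping antisense genes cannot be told apart. Symbols, exon lengths and coordinates came from a GRCm38 annotation, matched by identifier for 32897 of 37620 genes.

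Within each tissue, edgeR 4.0.16 (R 4.3.3; TMM, filterByExpr by genotype, robust quasi-likelihood test) was fitted over all libraries, with p adjusted by Benjamini-Hochberg over all genes tested and a threshold of 0.05. It gave 21 comparisons with wild type, the family terms with their departure from additivity, the wild-type tissue contrasts and the difference between tail bud and remainder. The Hox genes tested numbered 36 (tail bud), 30 (heart) and 32 (remainder). Alternatives were RLE size factors, DESeq2 1.42.0, no filter on low counts, a replicate block, the 2 groups alone and each library left out. A term for Xist state, and T in place of the marker list, were added after seeing the data. Genotypes differed in Xist state, with 0 of 3 tail buds high in the full knockout and 1 in wild type, Δ17 and Δ17,18,92. The number was 2 in Δ18, Δ19 and Δ17,18, and 3 in Δ92. Scripts were tested on simulated data. Of simulated full knockout changes of 0.4 on the log2 scale, 60.7% passed in tail bud and 69.5% in the remainder. Changes of this size can therefore be missed.

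Wild-type samples of the same number deviated together across tissues (correlation 0.2159 to 0.6335 for tail bud and remainder, 0.3318 to 0.5795 for remainder and heart, 0.1649 to 0.4766 for tail bud and heart). Between tail bud and remainder, every pair was over 0.1 in 6 of 8 genotypes, not in the full knockout (lowest 0.0178) or Δ17,18,92 (0.06749). Pairs of replicates differed beyond sampling noise (chi-square divided by its degrees of freedom was at least 2.656), so none was merged. Genes were described in full where they were among the 12 with the smallest adjusted p or the 3 highest per kb in a tissue, and others are given beside the counts they belong to. The members and lists were chosen with earlier results of these data known.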

Additional observations from a re-analysis of the deposited data

How the results depend on the processing

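No result changed direction under any alternative. Of the single-gene results, 1426 alternative values kept their side of the threshold and 167 lost it. These pool the wild-type tissue contrasts with the mutant and family results. Among the wild-type contrasts only Hoxc11 and Hoxd11, between remainder and heart, lost calls, so nearly all losses fell on mutant and family calls. The share lost among those calls was therefore higher than the pooled figures show. Of the counts of Hox genes, 648 stayed within 1.5 times and 88 did not. The cause of these shifts was not tested. With no filter on low counts, the count became 4 (from 7) for miR-19 in tail bud, 3 (from 5) for the full knockout tail bud, 9 (from 0) for the Δ17,18 heart and 1 (from 0) for the Δ92 heart, and in the embryo remainder 1 (from 0) for Δ17, 7 (from 1) for Δ17,18, 6 (from 1) for Δ17,18,92, 2 (from 0) for Δ18, 10 (from 0) for Δ19 and 3 (from 0) for the full knockout. With DESeq2 it became 2 (from 1) for miR-17, 0 (from 1) for Δ17,18 and 1 (from 0) for Δ19 in the remainder, and 6 (from 3) for Δ19 in tail bud. With the replicate block it became 1 (from 2) for miR-17 and 0 (from 2) for Δ17,18,92, both in tail bud; genotypes share only a replicate number, and the block changed no wild-type tissue count. In single genes it ended the calls of Hoxb6 in the full knockout (0.0512), Hoxa5 and Hoxa13 in Δ17,18,92 (0.0624 and 0.0587), Hoxa13 for miR-17 (0.0529) and Hoxc6 for miR-19 (0.0648) in tail bud, and of Hoxa9 for miR-19 in the remainder (0.0528). With a term for Xist state it became 0 (from 1) for the Δ17,18 remainder and, in tail bud, 1 (from 2) for Δ17,18,92 and 3 (from 5) for the full knockout. With the 2 groups alone, which leaves fewer samples, it became 0 in tail bud for Δ17,18 (from 3), Δ17,18,92 (from 2), Δ19 (from 3) and the full knockout (from 5), and in the remainder 3 (from 1) for Δ17,18,92 and 1 (from 0) for Δ19. With each library left out, tail bud counts ran from 2 to 7 for the full knockout, 0 to 5 for Δ19, 0 to 6 for Δ17,18, 0 to 3 for Δ17,18,92, 0 to 1 for Δ18, 1 to 3 for miR-17 and 2 to 8 for miR-19. In the remainder they ran from 0 to 1 for the full knockout, Δ19 and Δ17,18,92, were 0 for Δ17,18, and ran from 0 to 2 for miR-17, 0 to 1 for miR-18 and 2 to 7 for miR-19. The full knockout difference between tail bud and remainder ran from 0 to 1. Heart libraries held a median of 547 Hox counts, which limits what could be detected there.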
